A study of Homo sapiens with 16 samples.

Results

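The cytokine gene IL24 and the genes of its receptor chains, IL20RA, IL20RB and IL22RA1, were followed in 16HBE, an established human line from the bronchial epithelium, after treatment with D. rotundifolia 3× or with Ctrl. They make up 4 of the 25934 gene symbols listed at 3 h or 6 h, and all 4 were listed at both times under 1 gene ID each. The set was drawn up by name, IL24 with its levels in treated and Ctrl cells already in view and the receptor chains as those that bind its protein, so differences between treated and Ctrl cells are given for these 4 genes as a description, with no test.

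IL-24 is a secreted cytokine of the IL-20 subfamily within the IL-10 family. It binds a pair of receptor complexes, one of the chains IL20RA and IL20RB and one of the chains IL22RA1 and IL20RB, so that IL20RB is needed in both. The receptors act through Janus kinases, chiefly JAK1, and the transcription factor STAT3. In skin, where the subfamily is known best, keratinocytes answer with antimicrobial proteins and less terminal differentiation, and IL-24 is also known for cell death in tumour cells that are made to express it.

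The treated cells received the 3× dilution of an ethanolic extract of the sundew Drosera rotundifolia, and the Ctrl cells received the ethanol vehicle diluted in the same way. Poly(A) RNA was sequenced from 4 treated and 4 Ctrl cultures after 3 h and from 4 treated and 4 Ctrl cultures after 6 h, 16 libraries in all. The study describes the 4 as biological replicates, with treated and Ctrl wells on the same plates, and each time was an experiment with Ctrl cultures of its own. All 16 come from a single immortalised line grown without other cell types. Levels are given in TPM, a transcript abundance per unit of transcript length that sums to about the same total in every library (997870 to 999300 TPM here), so levels of different genes can be compared and sequencing depth cannot be read from it. The number of reads behind a single value is therefore unknown. In bulk RNA, fewer expressing cells and less RNA per cell cannot be told apart.

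Epithelial markers identified the cells in every group. Of 7 such markers, 6 had a mean of at least 1 TPM in all 4 groups (EPCAM, CDH1, KRT8, KRT18, KRT19 and KRT5, but not TP63), with summed levels of 8389.6 to 12044 TPM in treated libraries and 8833 to 11709.5 TPM in Ctrl libraries. Of the markers of leukocytes, fibroblasts and endothelial cells, CD68, COL1A1 and CDH5 alone reached that mean, and the leukocyte markers summed to 24.9 to 29.9 TPM in treated libraries and 21.7 to 28.5 TPM in Ctrl libraries. At 3 h both libraries of replicate 1 stood apart from the others: they were the highest of their groups in 15.5% of the 12919 tested genes and the lowest in 23.5%, more than those of any other replicate number. Results at 3 h are therefore given with and without them where they matter.

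IL24 (ENSG00000162892) lies on the plus strand of chromosome 1 at chr1:206897443-206904139 (GRCh38, GENCODE 44), within the IL10 gene cluster. IL20, which encodes a cytokine that uses the same receptor pairs, ends 28219 bases upstream of it. FCMR, the gene of the IgM receptor, runs on the opposite strand and shares 823 bases with the 3′ end of IL24. The libraries were strand-specific and were quantified with a strand setting. The receptor genes are unlinked: IL22RA1 (ENSG00000142677) at chr1:24119771-24143140 on the minus strand, IL20RB (ENSG00000174564) at chr3:136946230-137011085 on the plus strand and IL20RA (ENSG00000016402) at chr6:136999971-137045180 on the minus strand.

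The 250 bases before the start of IL24, and before 2 starts that RefSeq lists for its neighbour IL20, are shown because both ligand genes had treated libraries that all lay above the Ctrl libraries at 6 h, as described further on. The sequences are RefSeq's for GRCh38.p14, on the plus strand, with matches to TATATA and TATAAA, the letters of a TATA box, in capitals.
IL24, chr1:206897193-206897442: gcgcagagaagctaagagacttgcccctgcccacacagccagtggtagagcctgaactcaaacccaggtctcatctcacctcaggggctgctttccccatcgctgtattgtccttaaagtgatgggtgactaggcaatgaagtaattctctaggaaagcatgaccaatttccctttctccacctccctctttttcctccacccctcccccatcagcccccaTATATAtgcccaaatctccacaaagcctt
IL20, chr1:206865373-206865622: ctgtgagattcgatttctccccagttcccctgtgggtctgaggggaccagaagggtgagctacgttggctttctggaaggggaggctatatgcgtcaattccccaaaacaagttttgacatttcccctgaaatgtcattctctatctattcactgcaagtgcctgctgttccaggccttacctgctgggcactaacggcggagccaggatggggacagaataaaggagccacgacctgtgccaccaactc
IL20, upstream start, chr1:206863315-206863564: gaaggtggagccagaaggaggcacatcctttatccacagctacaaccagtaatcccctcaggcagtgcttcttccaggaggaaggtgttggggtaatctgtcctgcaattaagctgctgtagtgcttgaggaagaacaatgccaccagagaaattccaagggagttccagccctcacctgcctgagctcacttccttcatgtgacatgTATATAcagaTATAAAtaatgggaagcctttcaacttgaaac
The IL24 window holds TATATA with its first base at position -29 from the start. TATATA occurred in 3.73% of the 35116 RefSeq promoter windows of the same length. The first IL20 window, which ends just before the GENCODE 44 start of the gene, has neither. The window of the upstream IL20 start holds TATATA at -42 and TATAAA at -32, and TATAAA occurred in 10.7% of windows. On either strand, the IL24 window and both IL20 windows had no match to TGANTCA (AP-1), TGACGTCA (CRE), TTCNNNGAA (STAT) or GCGTG (the core that the aryl hydrocarbon receptor binds), which occurred in 6.57%, 1.65%, 6.57% and 32.2% of windows. The IL22RA1 window had 1 match to TGANTCA, at -223, and the window of 1 of the IL20RA starts had TATAAA at -32. The IL20RB window had none of the 6 motifs, but it begins at chr3:136957733, inside the GENCODE 44 gene and not before its start.

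After 6 h IL24 mRNA was more abundant in every treated culture than in every Ctrl culture. It had 33.4, 32.04, 100.6 and 37.9 TPM with D. rotundifolia 3× (replicates 1 to 4), against 4.18, 7.12, 5.49 and 4.77 TPM with Ctrl. The groups did not overlap, since the lowest treated library had 4.50 times the TPM of the highest Ctrl library. The means were 51.0 ± 33.2 TPM with D. rotundifolia 3× and 5.39 ± 1.27 TPM with Ctrl (SD, n = 4 each), a ratio of 9.46. On log2(TPM + 1) the difference was 2.87 (standard error 0.41). Leaving out 1 library at a time gave 2.49 to 3.03, the lowest of these without treated replicate 3, the library at 100.6 TPM. Among the 14179 genes tested at 6 h, this difference was the third from the highest. For comparison, 3.43% of those genes had every treated library above every Ctrl library and 1.65% had every treated library below. IL24 was taken up because of this contrast, so nothing is read from its place.

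After 3 h the IL24 levels of the groups overlapped, and the spread within each group was larger than the difference between them. Treated cultures had 159, 47.8, 40.4 and 61.3 TPM, against 164, 12.5, 41.1 and 18.0 TPM in Ctrl cultures. Replicate 1 was the highest of its group in both. The means were 77.1 ± 55.1 TPM with D. rotundifolia 3× and 58.9 ± 71.2 TPM with Ctrl (SD, n = 4 each), and the log2 difference was 0.87 (standard error 0.91). In the same-numbered libraries, treated was 3.82 and 3.40 times Ctrl in replicates 2 and 4, and 0.968 and 0.983 times Ctrl in replicates 1 and 3. The IL24 difference thus came from replicates 2 and 4 alone. Leaving out Ctrl replicate 1 gave 1.60, leaving out treated replicate 1 gave 0.45, leaving out both gave 1.18, and leaving out Ctrl replicate 2 gave 0.39. At 3 h, 1.02% of tested genes had every treated library above every Ctrl library and 0.503% had every treated library below, and no receptor chain or IL24 was among them.

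**Figure D1:**
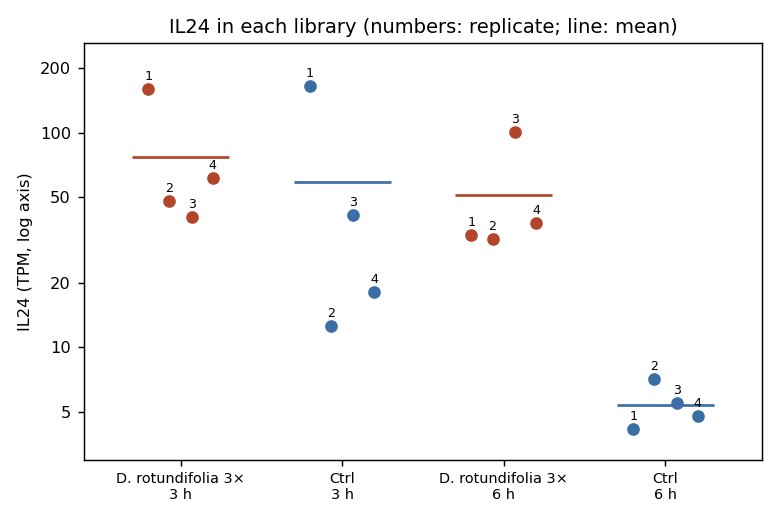
IL24 level in each of the 16 libraries (y axis, TPM on a log scale) by treatment and time (x axis), with replicate numbers above the points and a line at each group's mean. At 6 h the treated libraries (32.04 to 100.6 TPM) lie above all Ctrl libraries (4.18 to 7.12 TPM), while at 3 h treated libraries (40.4 to 159 TPM) and Ctrl libraries (12.5 to 164 TPM) overlap.

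The Ctrl cultures themselves differed between the experiments. All 4 Ctrl cultures at 6 h (4.18 to 7.12 TPM) had less IL24 than any Ctrl culture at 3 h (12.5 to 164 TPM), whereas the treated cultures had 32.04 to 100.6 TPM at 6 h and 40.4 to 159 TPM at 3 h and overlapped. Of 12610 genes tested at both times, 11.4% had every Ctrl library at 6 h below every Ctrl library at 3 h and 11.8% had them above. The times were separate experiments with separately made tables, so time and experiment cannot be told apart and the difference was not tested. By mean level IL24 ranked 3174th from the top of 24570 listed symbols in treated cells at 6 h and 10282nd in Ctrl cells at 6 h, and at 3 h 2170th and 2730th of 18632.

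IL20RB, the chain that both receptor complexes need, was the most abundant receptor chain in every library and hardly differed between treated and Ctrl cells. At 6 h it had 21.0, 20.9, 19.4 and 25.9 TPM with D. rotundifolia 3×, against 20.1, 20.1, 19.7 and 22.6 TPM with Ctrl, a log2 difference of 0.071 (standard error 0.096). At 3 h it had 17.5, 17.7, 18.6 and 15.7 TPM with D. rotundifolia 3×, against 15.5, 18.8, 18.5 and 16.9 TPM with Ctrl, a log2 difference of -0.0011 (standard error 0.078). The groups overlapped at both times, and IL20RB was higher in the treated library in 3 of 4 same-numbered comparisons at 6 h and 2 of 4 at 3 h. Between the Ctrl groups, IL20RB went the other way from IL24: its 6 h Ctrl libraries (19.7 to 22.6 TPM) all lay above its 3 h Ctrl libraries (15.5 to 18.8 TPM). So did those of 11.8% of the 12610 genes tested at both times, and time and experiment cannot be told apart.

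IL22RA1, the partner of IL20RB in one complex and also a chain of the IL-22 receptor, was present at a lower level that also hardly differed between the groups. At 6 h it had 4.93, 5.10, 3.92 and 5.69 TPM with D. rotundifolia 3×, against 5.06, 4.82, 4.16 and 5.50 TPM with Ctrl. At 3 h it had 3.62, 5.23, 4.62 and 4.36 TPM with D. rotundifolia 3×, against 3.62, 5.18, 4.50 and 4.43 TPM with Ctrl. Same-numbered libraries had nearly the same level while the replicates differed from each other: treated was 0.983 to 1.03 times Ctrl at 3 h and 0.942 to 1.06 times Ctrl at 6 h. The log2 differences were 0.0012 (standard error 0.12) at 6 h and 0.0061 (standard error 0.12) at 3 h. These errors hold the spread between replicates and leave the pairs out. Within the pairs at 3 h the log2 differences were 0.00084, 0.011, 0.032 and -0.020 (replicates 1 to 4).

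IL20RA, the partner of IL20RB in the other complex, was close to the limit of what the libraries show. At 6 h it had 0.0444, 0.114, 0.0829 and 0.101 TPM with D. rotundifolia 3×, against 0.325, 0.0308, 0.139 and 0.158 TPM with Ctrl. At 3 h it had 0.0924, 0.0991, 0.166 and 0.0916 TPM with D. rotundifolia 3×, against 0.123, 0.373, 0.0873 and 0.105 TPM with Ctrl. The groups overlapped at both times, and a single Ctrl library, replicate 1 at 6 h and replicate 2 at 3 h, held the highest value of each time. The log2 differences were -0.094 (standard error 0.077) at 6 h and -0.070 (standard error 0.082) at 3 h, and at this level they depend on the constant added before the logarithm: with 0.1 in place of 1 they were -0.40 and -0.26. The authors' mean normalized count was 11.7 for IL20RA at 6 h and 13.2 at 3 h, against 905 and 1814 for IL24, 1488 and 1337 for IL20RB and 574 and 543 for IL22RA1. IL20RA was below the mean of 1 TPM that a gene needed to be tested, so 3 of the 4 genes passed that filter.

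**Figure D2:**
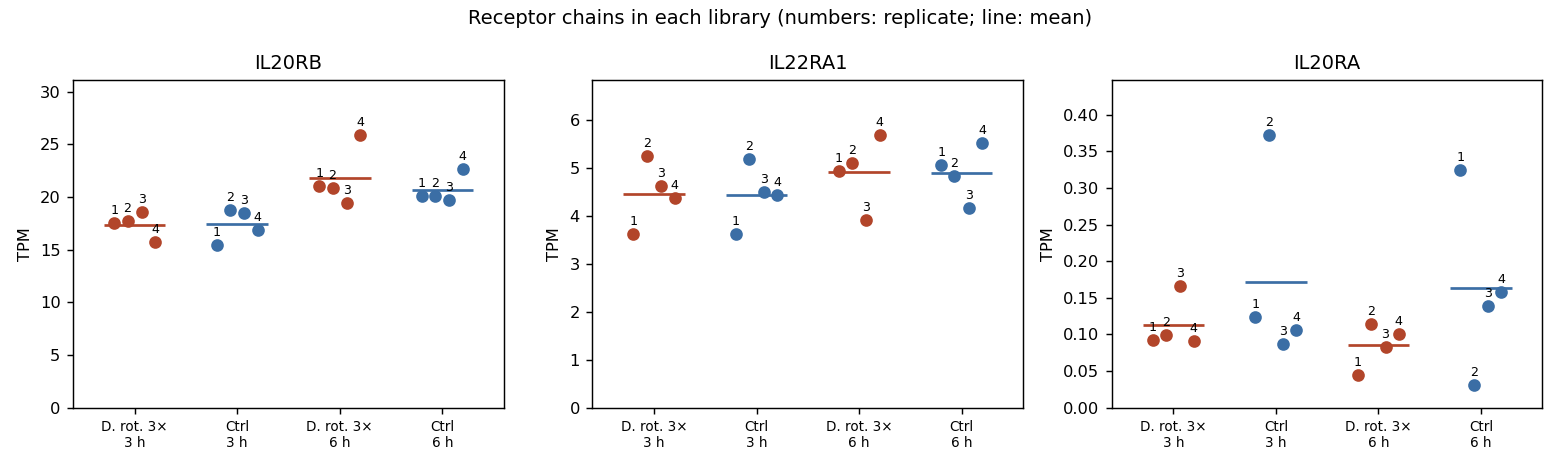
Levels of IL20RB, IL22RA1 and IL20RA in each library (y axes, TPM from 0, on a scale of its own for each gene) by treatment and time (x axis; D. rot. 3× is D. rotundifolia 3×), with replicate numbers and a line at each group's mean. Treated and Ctrl libraries overlap for each chain at each time, and IL20RA stays at or below 0.373 TPM.

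The order of the receptor chains was the same in all 16 libraries, with IL20RB above IL22RA1 and IL22RA1 above IL20RA. On the TPM scale IL20RB was 3.38 to 4.97 times IL22RA1, and IL22RA1 was 13.9 to 156 times IL20RA. The chains of the complex of IL22RA1 and IL20RB were thus the ones found above 1 TPM in every library. The ligand moved across this scale: IL24 was 1.46 to 5.17 times IL20RB in treated libraries at 6 h and 0.208 to 0.355 times in Ctrl libraries at 6 h, and 2.17 to 9.08 times in treated and 0.667 to 10.6 times in Ctrl libraries at 3 h. In mRNA level IL24 was therefore above its shared chain in all 8 treated libraries. The same held in Ctrl replicates 1, 3 and 4 at 3 h (10.6, 2.23 and 1.07 times). It did not hold in Ctrl replicate 2 at 3 h (0.667 times) or in any Ctrl library at 6 h.

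**Figure D3:**
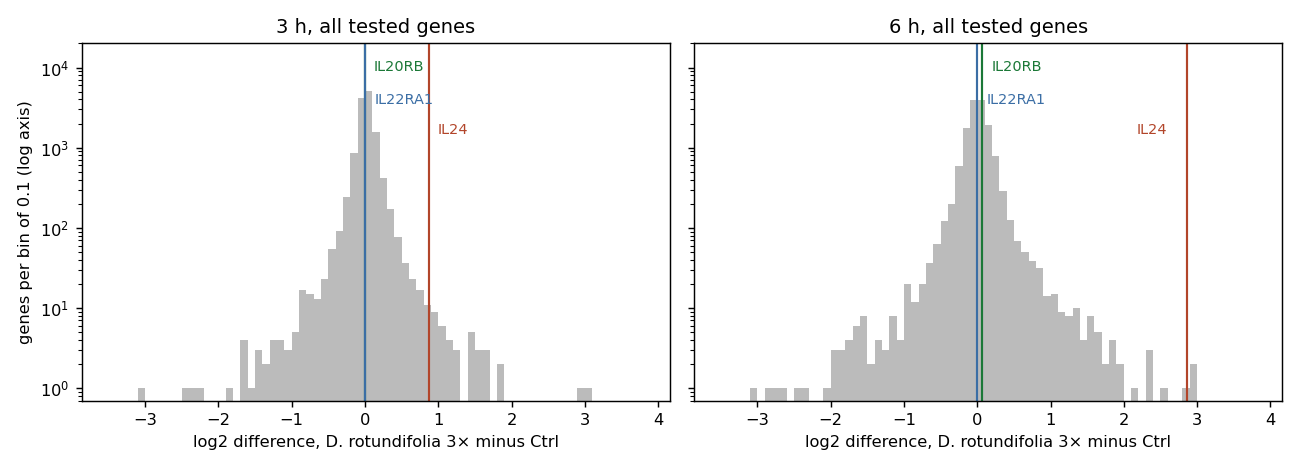
Histograms of the log2 difference, D. rotundifolia 3× minus Ctrl on log2(TPM + 1) (x axis), over all tested genes at 3 h (12919) and 6 h (14179), with gene numbers on a log scale (y axis) and lines at IL24, IL20RB and IL22RA1. IL24 lies at 0.87 at 3 h and 2.87 at 6 h, while IL20RB and IL22RA1 lie at or within 0.071 of 0 at both times.

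The other ligands of the family were scarce. IL20 was the highest of them, and at 6 h it had 0.774, 1.52, 1.67 and 0.874 TPM with D. rotundifolia 3×, against 0.323, 0.450, 0.339 and 0.288 TPM with Ctrl. Like IL24, it did not overlap between the groups at 6 h. At 3 h IL20 had 1.05, 0.520, 0.481 and 0.547 TPM with D. rotundifolia 3×, against 0.496, 0.364, 0.252 and 0.110 TPM with Ctrl, where the lowest treated library lay below the highest Ctrl library and treated was higher in 4 of 4 same-numbered comparisons. IL20 stayed under the filter of 1 TPM and was not tested, so it is not among the 3.43% above. IL10 and IL19, the other ligand genes of the cluster, were at or below 0.241 TPM in every library, and neither IL22 nor IL26 was listed at either time. Farther along the cluster, MAPKAPK2, the gene of a kinase downstream of p38, had 152, 142, 135 and 123 TPM with D. rotundifolia 3× at 6 h, against 124, 119, 122 and 102 TPM with Ctrl. The MAPKAPK2 groups overlapped, and its log2 difference of 0.24 (standard error 0.084) did not pass (limma adjusted p = 0.521). FCMR, which overlaps IL24 on the other strand, had 8.80, 13.1, 11.1 and 14.3 TPM with D. rotundifolia 3× at 6 h, against 9.52, 10.3, 7.99 and 9.80 TPM with Ctrl. FCMR did not show the separation of IL24, and its log2 difference was 0.28 (SE 0.14, limma adjusted p = 0.668). DYRK3, the other tested neighbour in the cluster, had a log2 difference of 0.0040 at 6 h (SE 0.095, limma adjusted p = 0.996), and its groups overlapped.

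The genes of the wider pathway were taken from 9 lists of 100 symbols, of which 75 were tested at each time with limma on log2(TPM + 1), adjusted over all genes tested. These lists were drawn up with earlier results of these data known, so their counts and shares are a description. At 6 h limma called 1 of the 75, JUNB, higher with D. rotundifolia 3× and 0 lower, against 0.113% of all tested genes called higher. At 3 h it called 0 of the 75, as it called 0 of all 12919 genes (0%), and with the replicate number as a block it called 1 gene (CYP1B1) and again no pathway gene. At an unadjusted p under 0.05 there were 15 of the 75 at 6 h and 2 at 3 h (JAK2 and HIF1A, both with higher treated means), against 1139 of 14179 and 311 of 12919 of all genes. Counts of higher treated means, here and below, are on log2(TPM + 1). In the 75 genes, 60 had a higher treated mean at 6 h, with a median log2 difference of 0.089 against 0.0052 over all genes. At 3 h 49 had one, with a median of 0.025 against 0.015. Every treated library lay above every Ctrl library in 7 of the 75 at 6 h (9.33%, against 3.43% of all tested genes) and in 0 at 3 h. The 24 pathway genes in which both libraries of replicate 1 were the highest of their groups at 3 h were 32% of the 75, against 15.5% of all genes. The part of replicate 1 in the 3 h result was not tested. Without both of its libraries the 3 h count was 0 for pathway genes and 2 over all genes (AC087393.1 and CYP1B1). A count already at 0, taken again from fewer libraries, cannot show that part.

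Among the receptors and the signalling proteins, no gene was called. Besides the IL24 chains, 7 class II cytokine receptor genes were tested, 5 with a higher treated mean at 6 h. F3, the gene of tissue factor, a member of that receptor family that starts blood coagulation, had 309, 368, 420 and 314 TPM with D. rotundifolia 3× at 6 h, against 247, 290, 296 and 259 TPM with Ctrl. The F3 groups did not overlap, and the log2 difference of 0.36 (standard error 0.11) did not pass (limma adjusted p = 0.439). The interferon gamma receptor chains IFNGR1 and IFNGR2 had log2 differences of 0.045 and 0.093 at 6 h. Of 9 tested JAK and STAT genes, 7 had higher treated means at each time. STAT3, the factor that IL-24 receptors activate, had a log2 difference of 0.034 (standard error 0.054) at 6 h, JAK1 one of -0.0049 (standard error 0.083) and STAT6 one of 0.15 (standard error 0.090). Of the 15 inhibitors tested at 6 h, 11 had higher treated means and 0 were called. The most abundant of them, the phosphatase genes PTPN2 and PTPN11 and the SUMO ligase gene PIAS4, had log2 differences of 0.033, -0.097 and -0.13. SOCS3, the feedback inhibitor that STAT3 induces, had 11.5, 15.1, 13.6 and 14.1 TPM with D. rotundifolia 3× at 6 h, against 10.8, 13.1, 11.3 and 11.1 TPM with Ctrl (log2 difference 0.21 with a standard error of 0.097, limma adjusted p = 0.651). Its groups overlapped.

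STAT3 target genes held most of the separated pathway genes at 6 h. Of 19 tested, 17 had a higher treated mean, with a median log2 difference of 0.21 against 0.0052 over all genes, and in 5 of them (BCL3, JUNB, CCND1, VEGFA and HIF1A) every treated library lay above every Ctrl library (26.3%, against 3.43% of all tested genes). This list was drawn up with earlier results of these data known, so nothing is read from its shares beside those of all genes. Many of these genes respond to other signals as well, and a link to IL24 was not tested. JUNB, a subunit of the transcription factor AP-1, had 22.3, 23.3, 26.3 and 24.7 TPM with D. rotundifolia 3×, against 15.9, 17.0, 16.7 and 14.5 TPM with Ctrl. JUNB rose by 0.57 on the log2 scale (SE 0.076, limma adjusted p = 0.0481). The call lies at the threshold: over 17 alternatives the adjusted p of JUNB from limma was 0.0323 to 0.191, and it was under 0.05 in 4 of them. BCL3, an IκB-like regulator of NF-κB, had 30.8, 29.3, 33.4 and 30.0 TPM with D. rotundifolia 3×, against 22.6, 21.4, 18.2 and 13.6 TPM with Ctrl (log2 difference 0.70 with a standard error of 0.14, limma adjusted p = 0.189). HIF1A, the oxygen-regulated subunit of HIF, had 86.8, 111, 120 and 116 TPM with D. rotundifolia 3×, against 64.1, 81.7, 79.2 and 81.6 TPM with Ctrl (log2 difference 0.49, limma adjusted p = 0.264). BCL3 and HIF1A did not pass, but HIF1A was called in place of JUNB with the replicate number as a block and also without both libraries of replicate 1. The cyclin gene CCND1 and the vascular growth factor gene VEGFA had log2 differences of 0.47 and 0.45 at 6 h, and neither passed (limma adjusted p = 0.427 and 0.461). The most abundant gene of the list was IL6ST, the gp130 chain of the IL-6 receptor, with a log2 difference of -0.11 (standard error 0.14), and TIMP1, an inhibitor of metalloproteinases, had one of 0.13 (standard error 0.085). At 3 h 10 of the 19 genes had a higher treated mean and in 0 were the groups apart.

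Genes with which keratinocytes respond to IL-20 subfamily cytokines did not pass. Of the genes known to go up in keratinocytes, 11 were tested and 9 had a higher treated mean of log2(TPM + 1) at 6 h. The 2 with a lower one were S100A8 (log2 difference -0.20, standard error 0.27) and S100A12 (-0.071, standard error 0.28). S100A8 was lower in the treated library in 4 of 4 same-numbered comparisons at 6 h. KRT6A, KRT16, CXCL8 and CCL20 of the same list were higher in 4 of 4, and its remaining tested genes were split. S100A7 was higher on the log scale alone, with mean levels of 5.74 TPM treated and 6.13 TPM Ctrl. The antimicrobial protein gene S100A9 had 520.5, 1178, 907 and 861 TPM with D. rotundifolia 3×, against 523, 1102, 815 and 828 TPM with Ctrl. S100A9 thus differed more between replicates than between the groups (log2 difference 0.075, standard error 0.28). The chemokine gene CXCL8 had 70.2, 59.8, 99.7 and 41.6 TPM with D. rotundifolia 3× at 6 h, against 45.9, 33.9, 47.4 and 24.3 TPM with Ctrl. The CXCL8 groups overlapped, and neither its log2 difference of 0.80 (standard error 0.29) nor that of the chemokine gene CCL20 (0.68, standard error 0.29) passed (limma adjusted p = 0.521 for CXCL8 and 0.606 for CCL20). The wound keratin gene KRT6A had a log2 difference of 0.45 (standard error 0.32) and the protease gene KLK6 one of 0.089 (standard error 0.12). Of the differentiation genes known to go down there, 4 were tested at 6 h and 3 had a higher treated mean. These 3 were IVL, the envelope protein involucrin (0.30, standard error 0.18), KRT10 (0.068, standard error 0.064) and the calcium-binding CALML5 (0.38, standard error 0.14), while KLK7 had a log2 difference of -0.039 (standard error 0.13). Among 11 tested genes tied to cell death with IL24, GADD45A, a growth arrest gene, had 35.3, 41.0, 44.3 and 46.4 TPM with D. rotundifolia 3× at 6 h, against 27.2, 26.2, 28.9 and 29.8 TPM with Ctrl. The GADD45A groups did not overlap, and its log2 difference of 0.55 (standard error 0.090) did not pass (limma adjusted p = 0.0860). The apoptosis effector BAX, the chaperone HSPA5 and the translation factor EIF2S1 had log2 differences of 0.11, 0.080 and 0.044. The genes named here were chosen by level within each list or as its calls, except SOCS3, STAT3, JAK2, HIF1A, BCL3, VEGFA, CXCL8, CCL20, KRT16, S100A7, S100A8, S100A12, CALML5 and GADD45A, which were picked after their values were seen.

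**Figure D4:**
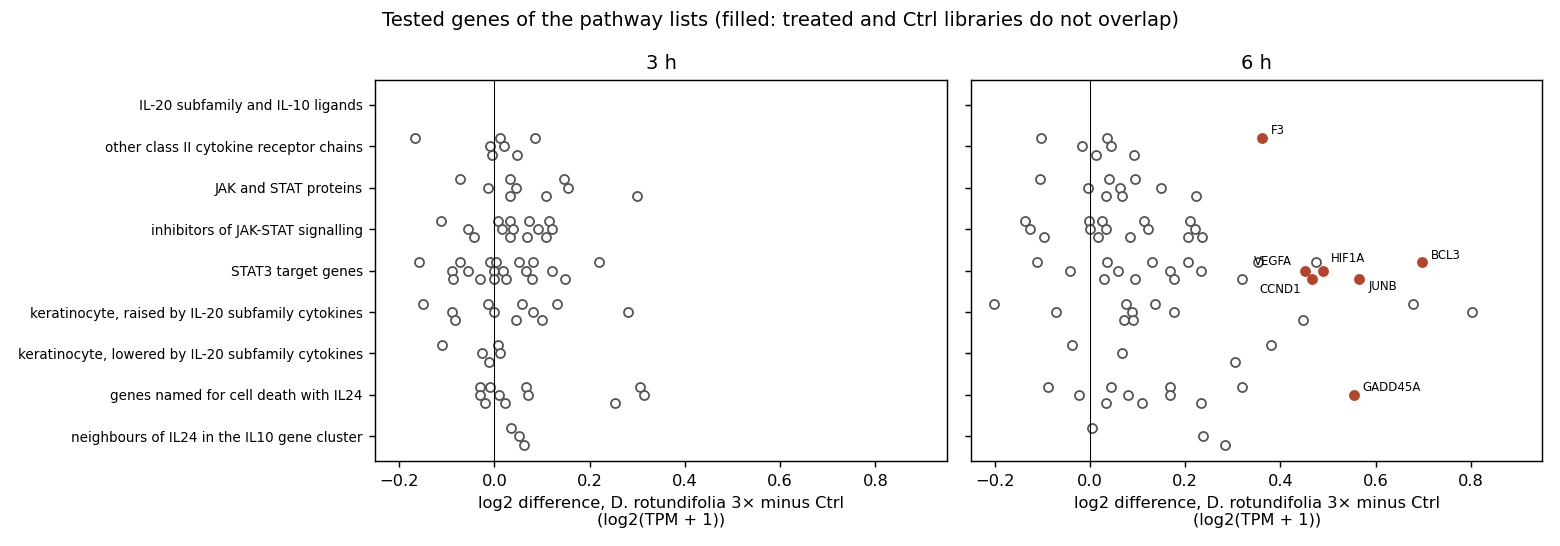
Log2 difference, D. rotundifolia 3× minus Ctrl on log2(TPM + 1) (x axis), of the 75 tested pathway genes at 3 h and at 6 h, by list (y axis, a gene in more than 1 list is drawn in each). Filled points are the 7 genes whose treated libraries all lie above all Ctrl libraries at 6 h, 5 of them STAT3 target genes, and no gene of the ligand list was tested.

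The difference between the 6 h change and the 3 h change was tested with an interaction term over all 16 libraries. Limma called 0 of the pathway genes for it, against 0.00792% of 12623 genes. With the replicate number as a block it called 1 of them, F3, which was lower in the treated library in 4 of 4 same-numbered comparisons at 3 h and higher in 4 of 4 at 6 h. F3 had 543, 225, 272 and 353 TPM with D. rotundifolia 3× at 3 h, against 553, 271, 313 and 398 TPM with Ctrl, so its groups overlapped there. The same-numbered libraries were taken as pairs at 3 h and not at 6 h. JUNB had a 6 h change minus 3 h change of 0.49 (SE 0.17, limma adjusted p = 0.999), and STAT3 one of 0.0019 (standard error 0.093).

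The genes whose level was most like that of IL24 over the 16 libraries were SERPINB2 and PLAU, of the plasminogen activator system, followed by TMEM200A, POLR3K and MFSD2A. Likeness was measured as Pearson's r on log2(TPM + 1) among 12312 genes, as a description, since libraries share treatment, time and replicate number. SERPINB2, an inhibitor of urokinase, had r = 0.94 and PLAU, urokinase itself, r = 0.93. At 6 h SERPINB2 had 21.6, 33.2, 53.9 and 43.3 TPM with D. rotundifolia 3×, against 7.30, 8.15, 9.19 and 11.95 TPM with Ctrl, and PLAU had 221 to 330 TPM with D. rotundifolia 3× against 148 to 179 TPM with Ctrl. Both had their 6 h treated libraries above all 6 h Ctrl libraries, as IL24 and 3.43% of all genes tested at 6 h did. The pair was picked for likeness to IL24 over these same libraries, so nothing is read from this separation. At 3 h replicate 1 was the highest of each group for both genes, with 112 TPM of SERPINB2 and 392 TPM of PLAU when treated and 88.3 TPM of SERPINB2 and 380 TPM of PLAU with Ctrl. Without the 3 h libraries of replicate 1, r was 0.91 for SERPINB2 and 0.90 for PLAU.

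Once each group's mean was removed, which leaves the differences among replicates, the most like genes were others: RELT, a receptor of the tumour necrosis factor family (r = 0.91), ARL14, a small GTPase (0.89), PFDN2, a subunit of the prefoldin chaperone (0.89), SBF1, a phosphatase-like protein (0.89), and ETS1, a transcription factor (0.89). These values rest in part on replicate 1 at 3 h: without its libraries they were 0.76, 0.71, 0.71, 0.74 and 0.78. SERPINB2 and PLAU stayed like IL24 in this measure, 14th and 61st of 12312 genes. Their r was 0.87 and 0.84, or 0.68 and 0.61 without those libraries. The receptor chains ran against IL24 in the same measure, with r = -0.78 for IL22RA1 and -0.47 for IL20RB, or -0.67 and -0.39 without those libraries. IL22RA1 was at 3.62 TPM in both the treated and the Ctrl library of replicate 1 at 3 h, where IL24 was at 159 and 164 TPM. On levels without removing the means, r was -0.58 for IL22RA1 and -0.45 for IL20RB. Within 6 h alone, IL20RB had r = 0.13 and IL22RA1 -0.23, so the sign for IL20RB changed between 6 h and 3 h, where it was -0.54.

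**Figure D5:**
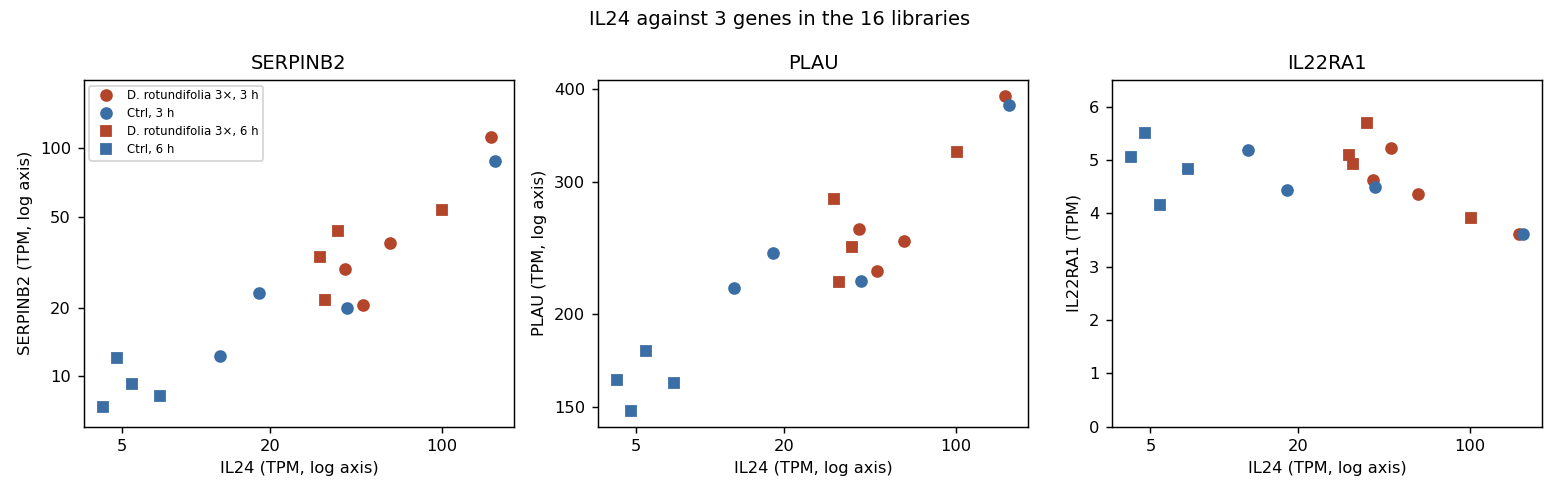
Levels of SERPINB2, PLAU and IL22RA1 (y axes, TPM; log scale for the first pair and linear from 0 for IL22RA1) against IL24 (x axis, TPM on a log scale) in the 16 libraries, coloured by treatment and shaped by time. SERPINB2 (r = 0.94) and PLAU (r = 0.93) are high where IL24 is high, while IL22RA1 is lowest, at 3.62 TPM, in the pair of libraries with the most IL24.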

How the data were processed

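RNA-seq of 16HBE cells with D. rotundifolia 3× or Ctrl (4 libraries each at 3 h and at 6 h) was used as deposited. The authors quantified reads with Salmon 0.13.1 (GENCODE 32, GRCh38.p13), brought them to gene level with tximport, dropped genes of under 10 reads and ran the Wald test of DESeq2 1.22.2. The authors deposited TPM per library for each gene and time. The deposited tables also hold a signal, the authors' mean normalized count, of which the values of the 4 genes are given. The authors' comparison columns (log2 fold change and its error, Wald score, p-value and adjusted p-value) were not used. TPM keeps no depth, so no count test was run. The TPM header names a length-scaled estimate, while the values have about the same sum in every library (997870 to 999300) and are read as TPM.

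TPM was summed over the IDs of a symbol, after 89 repeated rows at 6 h were dropped. Each time was fitted alone with limma 3.58.1 (R 4.3.3) on log2(TPM + 1), for symbols with a mean of at least 1 TPM, two-sided, with a trend on the mean, p-values adjusted by Benjamini-Hochberg over every tested gene, and a threshold of 0.05. No term for the replicate number was used, as none is given for the authors' test. A fit of all 16 libraries gave the interaction. The fits at each time were run on simulated data, with each library drawn independently. That check cannot show how the fits behave where same-numbered libraries are alike. Standard errors of IL24 and its receptor chains come from the spread within groups, and those of other genes from limma. The genes and lists were chosen with earlier results of these data known. Named genes were the 4 genes, pathway genes called, up to 3 of highest TPM per list, pathway genes apart at both times in one direction, and the 5 most like IL24 by either measure. Same-numbered libraries were taken as pairs at 3 h, since the correlation of their deviations from the group means was above 0.1 in 4 of 4 pairs (0.187 to 0.469). At 6 h it was so in 2 of 4 pairs (0.0564 to 0.204), and they were not taken as pairs. Counts and ratios of same-numbered libraries at 6 h are therefore a description. The main fits and the standard errors of IL24 and its receptor chains leave the pairs out at both times, and only the fits with the replicate block use them. Tables were made with pandas 2.3.3, scipy 1.17.1 and numpy 2.4.6 in Python 3.11.15, and figures with matplotlib 3.10.9.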

Additional observations from a re-analysis of the deposited data

Results flagged for a closer look

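Single libraries lay far from the other 3 of their group in 15 of 168 groups checked over the 42 named genes. Chance gives about 5% for independent values with a normal spread. The genes most like IL24 were picked for following it across libraries, including replicate 1 at 3 h, so nothing is read from this share. Of IL24 and its receptor chains, IL24 had 100.6 TPM in treated replicate 3 at 6 h, next to 37.9 TPM for the nearest library. IL20RA had 0.166 TPM in treated replicate 3 and 0.373 TPM in Ctrl replicate 2 at 3 h, and IL20RB had 22.6 TPM in Ctrl replicate 4 at 6 h. IL20 had 1.05 TPM in treated replicate 1 at 3 h.

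Of the other pathway genes, CCND1 had 71.3 TPM in Ctrl replicate 1 at 6 h, below the others. KRT10 had 43.8 TPM in treated replicate 1 at 3 h and 40.7 TPM in Ctrl replicate 1 at 6 h, both the lowest of their group. HSPA5 was lowest in both libraries of replicate 2 at 6 h, with 147 TPM when treated and 131 TPM with Ctrl.

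Of the genes most like IL24, ARL14 had 14.7 TPM in treated replicate 1 at 3 h. Ctrl replicate 1 at 3 h was far above the other Ctrl libraries for SERPINB2 (88.3 TPM), PLAU (380 TPM), POLR3K (20.2 TPM) and PFDN2 (91.7 TPM). In all, 7 of the 15 were libraries of replicate 1 at 3 h.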

How the results depend on the processing

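Of the alternatives to the results on IL24 and its receptor chains, those with another constant before the logarithm moved a value by more than the spread between replicates. With 5 in place of 1, the IL24 difference at 6 h was 2.29, and with 0.1 the IL20RA differences were -0.26 at 3 h and -0.40 at 6 h. Leaving out 1 library gave 0.39 to 1.60 for IL24 at 3 h, 2.49 to 3.03 for IL24 at 6 h, -0.10 to 0.0086 and -0.15 to -0.030 for IL20RA at 3 h and 6 h, -0.053 to 0.044 and -0.011 to 0.12 for IL20RB, and -0.069 to 0.083 and -0.061 to 0.087 for IL22RA1. Signs thus turned for the receptor chains, whose differences were near 0, except IL20RA at 6 h. With median-of-ratios scaling IL22RA1 had -0.0092 at 3 h and -0.0074 at 6 h.

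For pathway genes at 6 h, the 1 call (JUNB) became 0 with a constant of 5, with median-of-ratios scaling, without the filter on low values and with no trend on the mean. Leaving out 1 library gave 0 to 2 calls, the 2 being GADD45A and JUNB without treated replicate 1. With the replicate block, and also without both libraries of replicate 1, the call was HIF1A in place of JUNB, and the block gave 1 pathway gene (F3) for the difference between times. At 3 h leaving out a library gave 0 to 0 pathway calls.

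Over all genes, the 16 calls at 6 h became 40 with the replicate block (38 higher and 2 lower), 7 without the filter, 26 without both libraries of replicate 1 and 4 to 47 with 1 library left out, the 47 without treated replicate 1 and the 4 without treated replicate 3. The 0 calls at 3 h became 1 with gene IDs kept apart (PPP1R10), 1 with the replicate block (CYP1B1), 2 without both libraries of replicate 1 (AC087393.1 and CYP1B1), and 0 to 2 with 1 library left out. The cause was not tested. At 6 h 6 of 8 libraries were most like the library with their own number, and at 3 h 8 of 8. IL20RA, IL10 and IL19 were under 1 TPM and IL20 at most 1.67 TPM, and the reads behind the value of a single library are unknown. The authors' mean normalized count of IL20RA was 13.2 at 3 h and 11.7 at 6 h. Scaling moved the median of all genes by -0.017 at 3 h and -0.0094 at 6 h.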
